A study of Mus musculus with 28 samples.

Results

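The interferon response and antigen processing genes described here are 53 mouse genes, of 55536 in the count files, that are induced by interferons, carry the interferon signal or prepare peptides for major histocompatibility complex (MHC) class I. They were taken as a list of named genes, matched through Ensembl identifiers. The rule uses no measured value, but the list was drawn up with earlier results of these data known, so its direction between sites is not independent evidence. By role they are 6 receptors and kinases, 8 transcription factors, 19 antiviral effectors and regulators, 6 interferon-induced GTPases, 4 ADP-ribosylation and ubiquitin enzymes and 10 genes of class I processing. For a comparison of stimuli, 21 members were listed as type I interferon targets and 17 as interferon-gamma targets, from general knowledge, and many genes of either list respond to both.

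The study sequenced messenger RNA in bulk from mouse interfollicular epidermis (IFE), the skin surface between hair follicles, to compare basal cells marked through different genes. All mice were WT with a tamoxifen-inducible Cre driven through 1 of 4 genes and the Rosa tdTomato reporter, written Slc1a3CreER, AspmCreER, Dlx1CreER or K14CreER x RosatdTomato. Tamoxifen was given daily for 5 days (postnatal days 30 to 34). Tissue was collected at postnatal day 49, 2 weeks after the last dose, when hair follicles rest (telogen). From each line there are cells positive for the line's marker ("labelled") and total IFE cells ("total"). Back skin holds the Slc1a3 and Aspm lines with 3 libraries per gate and the K14 line with 2, which makes 16 libraries. Tail skin holds the Slc1a3, Aspm and Dlx1 lines with 2 per gate, which makes 12 libraries. Every group therefore carries a Cre line and received tamoxifen, so there is no untreated or Cre-negative group. The K14 line was sampled in back skin alone and the Dlx1 line in tail skin alone, so the comparison of sites rests on the Slc1a3 and Aspm lines.

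Interferons signal through paired receptor chains to Janus kinases, which activate STAT proteins. Type I interferons lead to a complex of STAT proteins with IRF9 that binds interferon-stimulated response elements (ISRE), while interferon-gamma leads to a STAT dimer that binds gamma-activated sites (GAS) and to induction of Irf1. In keratinocytes, as in other cells, interferon-gamma switches on the immunoproteasome, the peptide transporter TAP and the transactivator Nlrc5, which raise peptide display on class I molecules.

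Library totals ran from 7738262 to 37670589 counts. The Back Slc1a3 total replicate 4 library had the lowest total and counts for 14436 genes, against 18375 to 22500 in the other 27. The numbers of calls without it are given in the closing paragraphs on processing. Basal keratinocyte markers dominated every library: the sum of 7 such genes, as library-scaled counts (CPM), was 55067 to 86655 in back skin and 66166 to 118888 in tail skin. Levels are given as CPM on TMM-scaled library sizes, and as CPM per kilobase (kb) of exon wherever genes are compared with each other. Differences are log2 fold differences with their standard error (SE), tested with the quasi-likelihood method of edgeR. The p-values were adjusted over 17493 genes by Benjamini-Hochberg, and "called" means an adjusted p under 0.05. Of the 53 members 52 passed the filter on low counts, and the exception was Oas2. The labels do not name separate animals for the libraries of a group, so a p-value here measures spread among libraries, which may be technical. In bulk RNA, fewer expressing cells and less RNA per cell cannot be told apart.

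Back skin held far more of these transcripts than tail skin. Among total libraries of the Slc1a3 and Aspm lines (6 back, 4 tail), 42 of 52 members were lower in tail and 1, Ifnar2, was higher. The share of all genes called lower was 23.7% and called higher 22.5%. Among labelled libraries (6 back, 4 tail), 41 members were lower and again only Ifnar2 was higher, with 26.8% of all genes called lower and 23.3% higher. The median log2 difference, tail minus back, was -2.66 over the members and -0.03 over all genes in totals, and -2.78 against -0.08 in labelled cells. With the members that had 0 counts throughout tail set to their bound (3 counts per library), the medians were -2.60 in both. In all, 39 members were lower in both gates, 7 were called in neither (Ifnar1, Jak1, Irf7, Ifit2, Ifit3, Psme1 and Psme2), Irf5, Irf8 and Rsad2 were lower in totals alone and Ifngr2 and Ddx58 in labelled cells alone. Whether the last 5 differ between the gates was tested by the interactions given further on.

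The same order held library by library. For 27 of 52 members (51.9%) the lowest of all 16 back libraries lay above the highest of all 12 tail libraries, whereas this held for 5.77% of all genes. The opposite order held for Ifnar2 alone among the members and for 5.93% of all genes. By role, back lay wholly above tail for 1 of 6 receptors and kinases, 4 of 8 transcription factors, 8 of 18 antiviral genes tested, 5 of 6 GTPases, 3 of 4 ADP-ribosylation and ubiquitin enzymes and 6 of 10 class I processing genes.

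**Figure D1:**
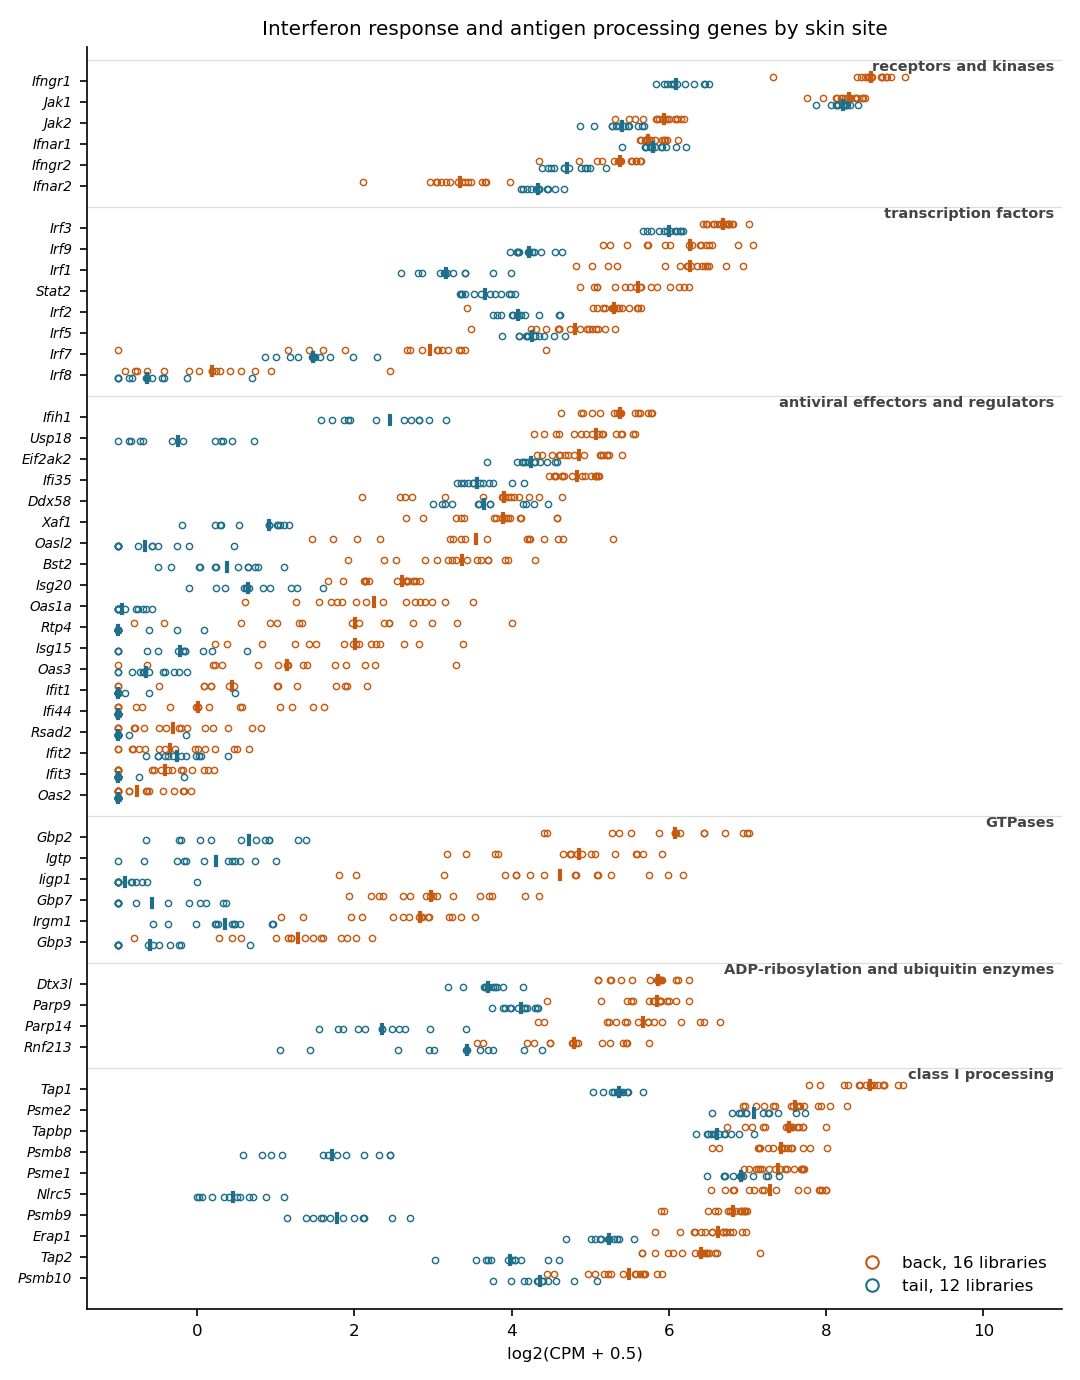
Level of each of the 53 members as log2(CPM + 0.5), with 1 open circle per library (orange, 16 back; blue, 12 tail) and a vertical bar at the median of each site, grouped by role and ordered by back level. For 27 members every back library lies to the right of every tail library, Ifnar2 shows the opposite order, and Jak1, Ifnar1 and Ifit2 overlap.

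Among receptors and kinases the chains of the interferon-gamma receptor and of the type I receptor did not move together. Ifngr1, the ligand-binding chain of the interferon-gamma receptor (ENSMUSG00000020009, GRCm38 chromosome 10, 19591949 to 19610229), measured 159, 381 and 512 CPM as lowest, median and highest of the 16 back libraries and 56.9, 67.6 and 90.6 in the 12 tail libraries. No tail library reached the lowest back library, which is the replicate with few genes detected. The difference was -2.23 in totals (SE 0.18, adjusted p = 6.29e-10, edgeR) and -2.46 in labelled cells (SE 0.18, adjusted p = 1.15e-10). Per kb Ifngr1 had the highest back median of all members, 134 CPM per kb, and 23.7 in tail. Its partner chain Ifngr2 ranged from 19.9 to 49.5 CPM in back and from 20.4 to 36.4 in tail, with differences of -0.40 in totals (adjusted p = 0.0627) and -0.55 in labelled cells (adjusted p = 0.0116).

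Ifnar2, the signalling chain of the type I receptor (chromosome 16, 91372783 to 91405589), measured 3.83, 9.68 and 15.3 CPM in back and 16.8, 19.7 and 24.8 in tail. It was the single member called higher in tail, by 1.06 in totals (SE 0.23, adjusted p = 0.00057) and 1.12 in labelled cells (SE 0.23, adjusted p = 0.000322). In the Aspm line alone the difference in totals was 0.87 (adjusted p = 0.0562). The other chain, Ifnar1, lies in the same stretch of chromosome 16 (91485238 to 91507441) and had medians of 52.8 CPM in back and 55.2 in tail, with a difference of 0.00 in totals (SE 0.10). Jak1, the kinase both receptors use, had medians of 313 and 298 CPM (difference -0.08, SE 0.13). Jak2, which serves the interferon-gamma receptor, was lower in tail by 0.69 on the log2 scale in totals, with 39.4 to 72.7 CPM in back and 28.8 to 50.9 in tail.

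Of 8 transcription factors 7 were lower in tail in totals and 5 in labelled cells, with list medians of -1.81 and -1.55. Irf1, the interferon-gamma-induced factor that acts on class I genes (ENSMUSG00000018899, chromosome 11, 53770014 to 53778374), measured 27.8, 76.5 and 123 CPM in back and 5.52, 8.45 and 15.4 in tail. Its difference was -3.01 in totals (SE 0.35, adjusted p = 3.09e-07) and -3.26 in labelled cells (SE 0.36, adjusted p = 1.06e-07), and the sites did not overlap. Stat2 and Irf9, the type I partners that form a complex on the ISRE, had back medians of 48.3 and 76.7 CPM and tail medians of 12.2 and 18.1. Both were lower in tail without overlap, Stat2 by -2.13 (SE 0.24) and Irf9 by -2.00 (SE 0.32) in totals.

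Irf3, which is present before stimulation and switches on interferon genes, was lower by a small amount, from 85.7 to 129 CPM in back against 50.3 to 72.3 in tail (difference -0.71, SE 0.10, in totals). Irf2, which competes with Irf1 for the same sites, differed by -1.23 in totals and -1.52 in labelled cells, and the sites overlapped through Back Slc1a3 total replicate 4 at 10.3 CPM, since the other 15 back libraries held 32.2 CPM or more. Irf7, the induced amplifier of type I interferon, lay between 0 and 21.2 CPM in back and between 1.32 and 4.37 in tail, and did not pass in either gate (adjusted p = 0.052 and 0.0625). Irf5 and Irf8, known chiefly from myeloid and B cells, differed by -0.57 and -3.10 in totals. Irf8 had a back median of 0.640 CPM, so its value rests on few reads, and Irf5 shares 411 exon bases with Tnpo3 on the other strand in libraries that do not keep strand.

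The class I processing group held high levels per kb and some of the widest separations. Nlrc5, the transactivator of class I genes (ENSMUSG00000074151, chromosome 8, 94434356 to 94527272), measured 92.3, 156 and 255 CPM in back and 0.497, 0.876 and 1.66 in tail. The highest tail library thus held a small fraction of the lowest back library. The difference was -7.38 in totals (SE 0.31, adjusted p = 8.22e-15) and -7.91 in labelled cells (SE 0.33, adjusted p = 3.97e-15), the lowest p of any member in both.

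Psmb8 and Psmb9, catalytic subunits that enter the immunoproteasome, lie with Tap1 and Tap2 in 1 stretch of the MHC region on chromosome 17, from 34181987 (start of Psmb9) to 34216321 (end of Tap2). Psmb8 (ENSMUSG00000024338) measured 92.7, 172 and 259 CPM in back and 0.995, 2.80 and 4.96 in tail. Psmb9 measured 59.1, 112 and 127 CPM in back and 1.71, 2.93 and 6.06 in tail. Neither gene came near overlap between the sites. In totals Psmb8 differed by -5.33 (SE 0.33) and Psmb9 by -4.94 (SE 0.28), and in labelled cells by -6.60 (SE 0.36) and -5.34 (SE 0.29).

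Tap1 and Tap2, which together form the peptide transporter, were also lower but kept a clear level in tail. Tap1 measured 219, 377 and 502 CPM in back and 32.4, 40.6 and 50.7 in tail (difference in totals -3.20, SE 0.20). Tap2 measured 49.9, 84.6 and 142 CPM in back and 7.65, 15.2 and 23.8 in tail (difference -2.37, SE 0.19). Psmb9 and Tap1 share 212 exon bases on opposite strands, so some reads of the higher Tap1 could be counted for Psmb9 or left uncounted. Erap1, the aminopeptidase that trims peptides in the endoplasmic reticulum, ranged from 56.2 to 125 CPM in back and from 25.4 to 46.5 in tail, a difference of -1.39 in totals (SE 0.12). It shares 834 exon bases with Cast on the other strand.

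The remaining class I members differed less. Tapbp (tapasin, which edits peptides at the transporter) was lower in tail by 0.80 on the log2 scale, with overlapping ranges of 107 to 255 and 80.8 to 135 CPM. Psmb10, the third immunoproteasome subunit, differed by -0.89 in totals (SE 0.27, adjusted p = 0.00894), from a back median of 44.7 CPM to a tail median of 20.1. Psme1 and Psme2, which build the PA28 cap of the proteasome, had back medians of 166 and 194 CPM and tail medians of 120 and 136. Neither was called: in totals Psme1 differed by -0.32 (adjusted p = 0.0612) and Psme2 by -0.38 (adjusted p = 0.147). Class I processing therefore ran from Nlrc5, present at about 1 CPM in tail, to Psme2, the member with the highest tail median per kb (77.1 CPM per kb).

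Each immunoproteasome subunit replaces a constitutive one, and the pairs moved in opposite directions. Psmb5, Psmb6 and Psmb7, the constitutive counterparts of Psmb8, Psmb9 and Psmb10, were all higher in tail in totals, by 0.65, 0.89 and 0.83. As a ratio of CPM per kb, Psmb8 over Psmb5 was 0.472, 0.980 and 1.87 (lowest, median, highest) in back and 0.00380, 0.0120 and 0.0193 in tail. Psmb9 over Psmb6 was 0.242, 0.473 and 0.649 in back and 0.00411, 0.00871 and 0.0153 in tail. The ratio of Psmb10 over Psmb7 shifted least, from 0.444, 0.926 and 4.22 in back to 0.234, 0.316 and 0.451 in tail, and the ranges overlapped. The back value of 4.22 belongs to Back Slc1a3 total replicate 4, the library with few genes detected. A ratio within a library shows unequal levels, and it does not show that either subunit stayed constant.

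**Figure D2:**
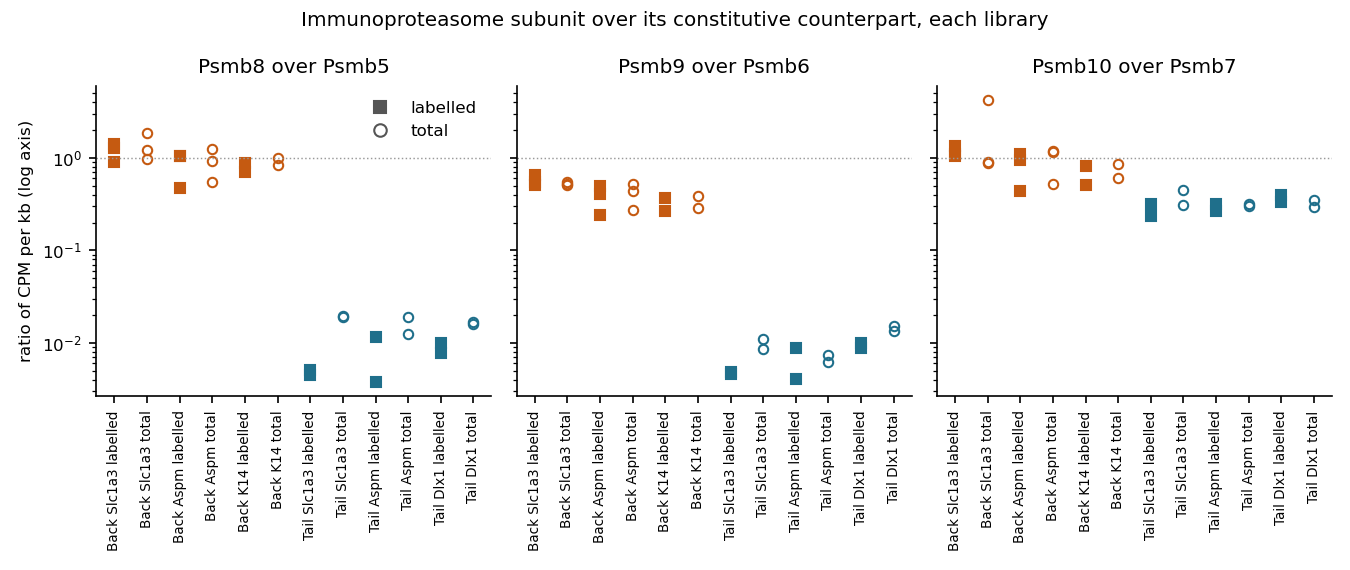
Ratio of CPM per kb of exon for each induced proteasome subunit over its constitutive counterpart, on a log axis, with 1 point per library in each of the 12 groups (orange back, blue tail; filled squares labelled, open circles total; dotted line at equal level). Psmb8 over Psmb5 and Psmb9 over Psmb6 are separated between the sites, and the ranges of Psmb10 over Psmb7 overlap.

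All 6 GTPases were lower in tail in both gates, with list medians of -4.92 in totals and -6.90 in labelled cells, the lowest of any role. These proteins act on the membranes around intracellular microbes. Gbp2, a guanylate-binding protein (ENSMUSG00000028270, chromosome 3, 142620602 to 142638008), measured 20.8, 67.3 and 130 CPM in back and 0.138, 1.08 and 2.11 in tail, a difference of -5.91 in totals (SE 0.63, adjusted p = 3.13e-07). Igtp, an immunity-related GTPase (ENSMUSG00000078853), measured 8.55, 28.6 and 59.9 CPM in back and 0, 0.690 and 1.5 in tail, a difference of -5.31 (SE 0.55). Iigp1, of the same family, measured 3.0, 24.2 and 72.0 CPM in back and 0, 0.0297 and 0.497 in tail. For all 3 the sites were fully apart, and the fitted difference for Iigp1 (-10.87 in totals, SE 1.23) rests on almost no tail reads.

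Gbp7, Irgm1 and Gbp3 were present at lower levels, with back medians of 7.37, 6.63 and 1.94 CPM and tail medians of 0.180, 0.783 and 0.161. In totals they differed by -4.53 (SE 0.75), -3.02 (SE 0.55) and -3.16 (SE 0.93). Gbp2, Gbp3 and Gbp7 are neighbours on chromosome 3 with related sequences, and Igtp shares 162 exon bases with Irgm2, so reads may be split among relatives in a way the sources used here do not describe.

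Among antiviral effectors and regulators 15 of 18 members tested were lower in tail in each gate, and the list medians were -3.60 and -3.83. The group spanned strong and barely detectable genes. Usp18, the protease that removes ISG15 and damps type I signalling (ENSMUSG00000030107, chromosome 6, 121245906 to 121270917), measured 19.1, 33.1 and 46.8 CPM in back and 0, 0.344 and 1.15 in tail, a difference of -5.25 in totals (SE 0.31, adjusted p = 3.11e-12). Ifih1, the double-stranded RNA sensor MDA5, measured 24.3, 41.0 and 54.8 CPM in back and 2.48, 5.02 and 8.47 in tail, a difference of -3.03 (SE 0.29). Xaf1, a pro-apoptotic interferon target, measured 5.80, 14.3 and 23.4 CPM in back and 0.373, 1.38 and 1.75 in tail, a difference of -3.77 (SE 0.39). None of these overlapped between the sites.

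The oligoadenylate synthetase family, which activates RNase L, was nearly absent from tail. Oasl2 measured 2.25, 11.3 and 38.7 CPM in back and 0, 0.133 and 0.879 in tail, and Oas1a measured 1.02, 4.29 and 10.8 against 0, 0.0153 and 0.175. Their differences in totals were -6.64 (SE 0.99) and -5.90 (SE 0.75). Oas3 was lower as well (-3.23, SE 0.90), and Oas2 never exceeded 0.446 CPM and had 0 counts in every tail library. Bst2 (tetherin, which holds virions at the membrane), Rtp4 and Isg15 had back medians of 9.81, 3.54 and 3.51 CPM and tail medians of 0.809, 0 and 0.363, and all 3 were lower in tail in both gates. Isg20, an exonuclease, was lower by 1.5 on the log2 scale in totals, and its 2.68 to 6.67 CPM in back lay above the 0.433 to 2.55 in tail.

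Several classical type I targets were close to the detection limit even in back skin. Ifit1, Ifit2, Ifit3, Rsad2 (viperin) and Ifi44 had back medians of 0.857, 0.290, 0.251, 0.309 and 0.508 CPM, and for each at least 1 back library was at 0. Ifi44 had 0 counts in every tail library, so its back total mean of 1.06 CPM is at least 7.15-fold higher than the tail floor of 3 counts per library. Ifit1 had 0 counts in the labelled Slc1a3 and Aspm tail libraries, and its labelled back mean of 1.3 CPM is at least 7.34-fold higher. Ifit2 did not differ measurably, with -0.59 in totals (SE 0.83) and 0.06 in labelled cells (SE 0.80), intervals wide enough to hold sizeable differences in either direction.

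Ddx58, Eif2ak2 and Ifi35 differed by less than the list median. Ddx58 (the RNA sensor RIG-I) had medians of 14.4 CPM in back and 12.1 in tail, with -0.61 in totals (adjusted p = 0.0504) and -0.63 in labelled cells (adjusted p = 0.0412). Eif2ak2 (the kinase PKR) was lower by 0.74 on the log2 scale in totals, with 19.6 to 41.7 CPM in back and 12.4 to 23.3 in tail. Ifi35 was lower by 1.14, with 21.8 to 34.0 CPM in back lying above 9.41 to 17.4 in tail.

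All 4 ADP-ribosylation and ubiquitin enzymes were lower in tail in both gates. Parp14, a mono-ADP-ribosyltransferase, measured 19.6, 50.6 and 100.0 CPM in back and 2.43, 4.59 and 10.3 in tail, a difference of -3.79 in totals (SE 0.29, adjusted p = 2.33e-10). Dtx3l and Parp9, which form a ubiquitin ligase complex, had back medians of 57.6 and 57.3 CPM and tail medians of 12.5 and 16.9, with differences of -2.04 (SE 0.23) and -1.74 (SE 0.23). They lie head to head on chromosome 16 and share 458 exon bases on opposite strands, so their counts are not independent. Rnf213, a giant ubiquitin ligase, overlapped between the sites, with 11.3 to 53.2 CPM in back and 1.57 to 20.4 in tail, and differed by -1.96 in totals (SE 0.32) and -2.95 in labelled cells (SE 0.34).

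**Figure D3:**
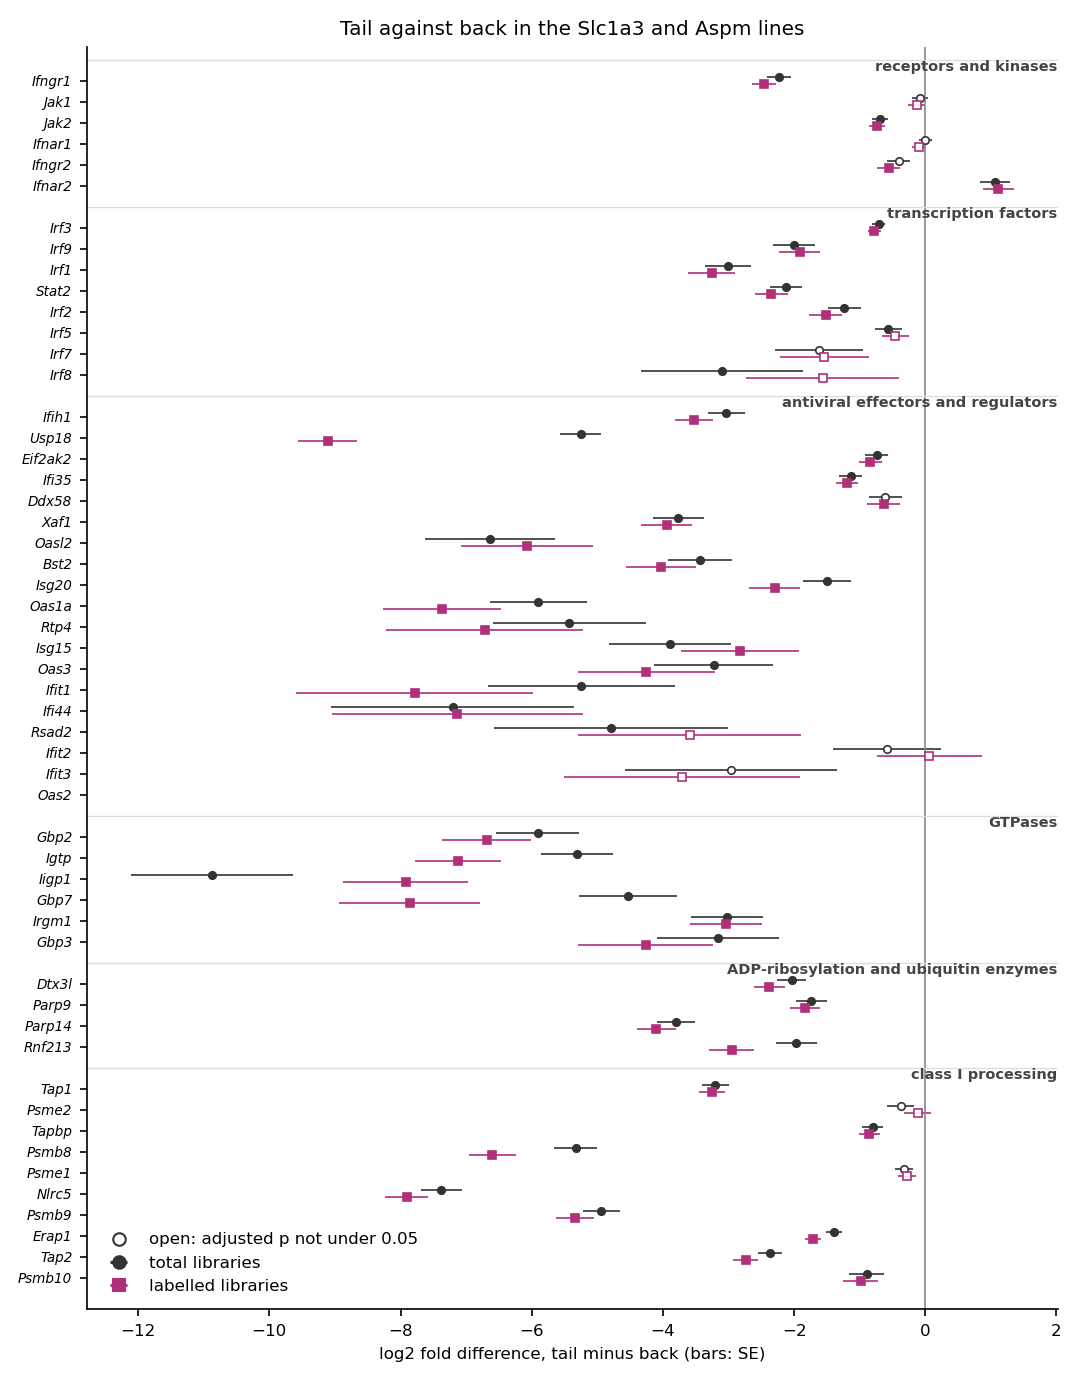
Log2 fold difference, tail minus back, with SE, for each member tested, in total libraries (black circles, 4 tail and 6 back) and labelled libraries (magenta squares, 4 and 6); open symbols have an adjusted p of at least 0.05. Nearly all points lie left of 0, Ifnar2 lies to the right in both gates, and points far to the left with long bars belong to genes with almost no tail reads.

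Type I and interferon-gamma targets were both lower in tail, and the size of the difference was not tested between the lists. In totals 16 of 20 type I targets and 15 of 17 interferon-gamma targets were lower and none was higher, with list medians of -3.33 and -3.16. With members at 0 counts in tail set to their bound the type I median became -3.13, so the order of the 2 lists is not fixed. In labelled cells 16 of 20 and 14 of 17 were lower, with medians of -3.65 (-3.20 with bounds) and -3.26. Every back library lay above every tail library for 9 of 21 type I and 11 of 17 interferon-gamma targets. The lists differed in level, a comparison across genes with no test. The median over members of the back level was 2.04 CPM per kb for type I targets and 22.4 for interferon-gamma targets, and 7 of 21 and 2 of 17 members had a back median under 1 CPM per kb. In tail these medians were 0.123 and 0.801, and 17 of 21 and 10 of 17 were under 1. Most class I processing genes are on the interferon-gamma list and none is on the type I list. Those listed had back medians from 18.3 (Nlrc5) to 110 CPM per kb (Psme2). The other interferon-gamma targets ran from 0.0907 (Irf8) to 26.8 (Gbp2). The difference in level between the lists therefore cannot be told apart from which genes they hold. In every back library the median deviation of each list from the mean over groups was above 0, and in every tail library it was below 0.

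**Figure D4:**
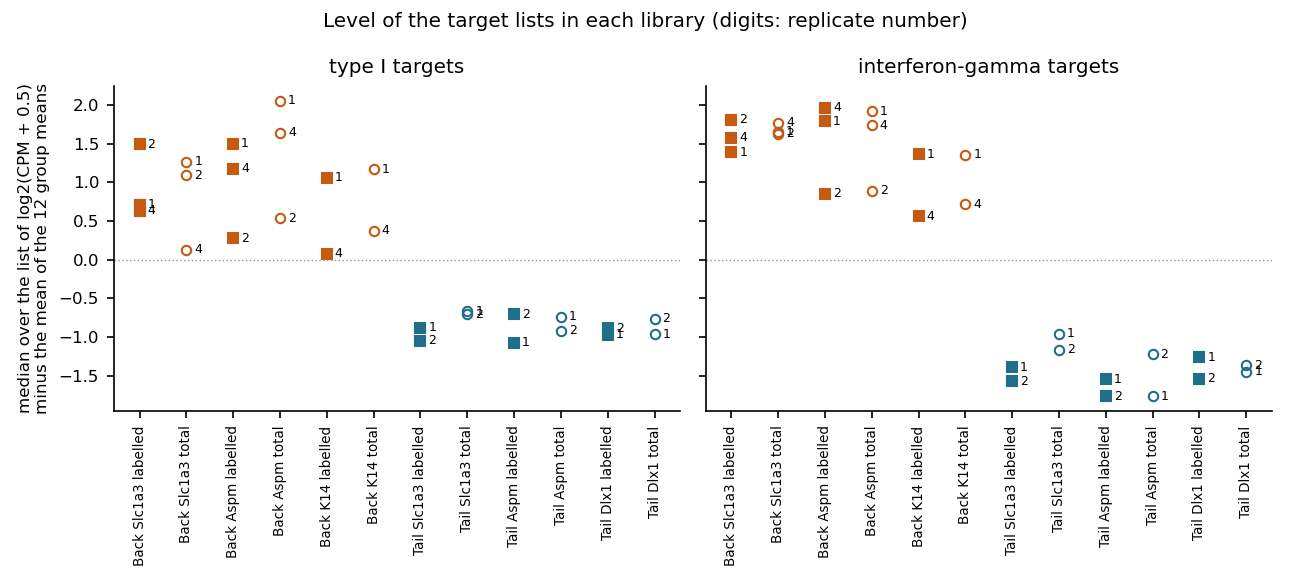
Median over the tested members of each target list (20 type I, 17 interferon-gamma) of log2(CPM + 0.5) minus the mean of the 12 group means, with 1 point per library and its replicate number (orange back, blue tail; filled squares labelled, open circles total). Back libraries lie above 0 and tail libraries below it in both panels, and within back both gates of Aspm replicate 2 and K14 replicate 4 are the lowest for interferon-gamma targets.

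Promoters were read to describe the members. These were listed as interferon genes, so a raised share of such motifs over all promoters can follow from the list itself. RefSeq windows (build GRCm38.p6) of 300 bases, from 250 before to 50 after the annotated start, matched 45 members with 53 windows, and Iigp1, Nlrc5, Oas2, Parp14, Parp9, Rtp4, Tap2 and Usp18 had no entry. Both strands were searched for an ISRE core (GAAA, any 2 bases, GAAA) and a GAS (TTC, any 3 bases, GAA), which may overlap each other. The ISRE core was in 35.8% of member windows and in 3.44% of 32851 windows of all genes, and the GAS in 26.4% and 8.3%. By gene, the ISRE core was found for 5 of 5 GTPases with a window, 10 of 16 antiviral genes, 2 of 8 transcription factors, 2 of 8 class I processing genes, 0 of 6 receptors and kinases and 0 of 2 ADP-ribosylation and ubiquitin enzymes. It was found for 61.1% of type I targets and 42.9% of interferon-gamma targets, and the GAS for 27.8% and 35.7%. Over all genes these shares were 3.99% for the ISRE core and 9.55% for the GAS. Among members lower in tail 45.7% had the ISRE core, and among the others 30%, over 35 and 10 genes. A match is a description of letters and not of a bound site.

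The windows below are those of the 5 called members with a match and the lowest p between sites in totals, each 5′ to 3′ on the gene's strand with matches in capitals. Psmb8 shows a GAS whose first base is 97 before the RefSeq start . Igtp shows a GAS at 45 and an ISRE core at 34 bases before the start. The ISRE cores of Erap1 and Stat2 are on the opposite strand, 4 and 222 bases before the start, and that of Ifih1 begins at base 33 of the transcript. The GENCODE models of Psmb8 and Erap1 begin upstream of the RefSeq start, so both of these matches lie inside those models.
Psmb8 (chr17:34197945-34198244, plus strand): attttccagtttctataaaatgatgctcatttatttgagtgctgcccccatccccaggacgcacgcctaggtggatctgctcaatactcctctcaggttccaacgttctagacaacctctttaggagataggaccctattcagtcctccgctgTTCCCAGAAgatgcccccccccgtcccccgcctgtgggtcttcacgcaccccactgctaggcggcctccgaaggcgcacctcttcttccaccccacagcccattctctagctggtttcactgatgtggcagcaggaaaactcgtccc
Erap1 (chr13:74639603-74639902, plus strand): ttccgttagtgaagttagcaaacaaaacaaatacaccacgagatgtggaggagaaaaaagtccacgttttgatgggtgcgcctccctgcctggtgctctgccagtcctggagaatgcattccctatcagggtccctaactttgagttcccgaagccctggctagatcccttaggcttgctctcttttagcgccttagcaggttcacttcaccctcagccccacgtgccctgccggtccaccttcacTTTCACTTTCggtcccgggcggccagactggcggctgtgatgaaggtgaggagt
Ifih1 (chr2:62646206-62646505, minus strand): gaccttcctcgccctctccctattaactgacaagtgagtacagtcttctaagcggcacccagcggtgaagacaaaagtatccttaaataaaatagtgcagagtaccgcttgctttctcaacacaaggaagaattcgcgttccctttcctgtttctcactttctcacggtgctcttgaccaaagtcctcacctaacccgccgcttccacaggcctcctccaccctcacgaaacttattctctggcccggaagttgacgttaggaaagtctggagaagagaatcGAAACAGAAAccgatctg
Igtp (chr11:58199306-58199605, plus strand): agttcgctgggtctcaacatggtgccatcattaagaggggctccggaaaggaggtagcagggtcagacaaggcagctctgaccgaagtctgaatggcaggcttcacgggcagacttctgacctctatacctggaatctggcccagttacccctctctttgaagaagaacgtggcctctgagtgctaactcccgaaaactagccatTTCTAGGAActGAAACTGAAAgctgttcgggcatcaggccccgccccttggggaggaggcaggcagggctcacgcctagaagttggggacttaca
Stat2 (chr10:128270248-128270547, plus strand): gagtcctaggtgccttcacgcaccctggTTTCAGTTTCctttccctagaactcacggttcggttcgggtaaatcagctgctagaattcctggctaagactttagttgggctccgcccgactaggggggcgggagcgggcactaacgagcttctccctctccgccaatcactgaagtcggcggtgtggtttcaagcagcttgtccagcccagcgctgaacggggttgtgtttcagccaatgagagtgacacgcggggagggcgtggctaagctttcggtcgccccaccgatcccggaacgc

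Genes of the same pathway outside the 53 were read from 5 further lists of 90 genes, of which 73 were tested. In totals 47 were lower and 8 higher in tail, with a median of -1.64, and in labelled cells 49 were lower and 9 higher, with a median of -1.57. Those lower in totals with the lowest p were Helz2 (-4.18), the caspases Casp4 (-2.92) and Casp1 (-1.94) and the ubiquitin ligase Herc6 (-5.62). Those higher were led by Psmb6, the aminopeptidase Lap3 (0.72), the tRNA ligase Wars (0.77) and the membrane protein Ifitm2 (1.43), which are all known as interferon-inducible except Psmb6. Of the 8 higher in totals 4 belong to the proteasome: Psmb5, Psmb6, Psmb7 and the alternative cap Psme3. Lists of sensors and adaptors (10 of 15 lower, 0 higher) and of further induced genes (29 of 41 lower, 3 higher) went the way of the members, and the list of class I loading and proteasome genes did not (3 lower and 4 higher of 9).

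Transcripts of interferons themselves were at or near 0. Of 8 interferon genes none passed the filter, and Ifng, Ifnb1, Ifne, Ifna2, Ifna4 and Ifnl2 had 0 counts in all 28 libraries. Ifnk, the keratinocyte interferon kappa, reached at most 0.393 CPM in back, where 9 of 16 libraries were at 0, and 0.0514 in tail, where 11 of 12 were. Ifnl3 had counts in 1 back library. Interferon-induced chemokines were present at low levels: Cxcl9 and Cxcl10 had back medians of 6.66 and 7.76 CPM and tail medians of 0.321 and 0.552, and both were lower in tail in totals. Socs3, a feedback inhibitor of Janus kinases, measured 32.0 to 82.2 CPM in back and 6.23 to 23.2 in tail, while Socs1, the inhibitor that interferon-gamma induces, had medians of 7.41 and 8.52.

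Markers of immune cells also differed between the sites and are given beside these results. The medians of 8 of 9 Langerhans cell markers and 8 of 9 epidermal T cell markers were higher in back. Their summed levels overlapped: 23.6 to 265 CPM in back against 29.6 to 113 in tail for Langerhans cells, and 24.1 to 136 against 15.5 to 156 for T cells, where Mfge8 and Thy1, which other skin cells also express, made up most of the tail sum. Among Langerhans markers Cd74, part of the class II pathway, measured 10.2 to 94.6 CPM in back and 1.48 to 17.4 in tail, and the defining marker Cd207 (langerin) at most 2.63 CPM in back and 1.51 in tail. The pan-leukocyte gene Ptprc reached 2.40 CPM in back and 0.157 in tail, and Cd3e 0.487 and 0.315. No marker of either list was at 0 in every back library, and in tail only Cd2 was. Macrophage markers summed to 1.92 to 7.25 CPM in back and 4.04 to 8.54 in tail, and fibroblast markers to 0.968 to 10.7 and 17.8 to 37.7. Cd14 (medians 1.87 and 3.66 CPM) and Cd68 were higher in tail, whereas Adgre1, Lyz2 and C1qa had higher medians in back. Most of the tail fibroblast sum was Dcn, with medians of 0.606 CPM in back and 17.5 in tail. Col1a1, Col1a2 and Pdgfra had slightly higher medians in tail, and Lum had a median of 0 at both sites. Melanocyte markers summed to 3.31 to 13.4 CPM in back and 7.25 to 26.5 in tail, with all 4 medians higher in tail. Among keratinocyte markers Krt15 had medians of 17928 CPM in back and 3414 in tail, and Krt1 of 3785 and 2017. Their part in the results was not tested.

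Whether the site difference depends on the line was tested as an interaction of site with line (Slc1a3 against Aspm). No member was called in totals (0% of all genes) or in labelled cells (0.137% of all genes) by edgeR, against 5 and 4 members at an unadjusted p under 0.05 and 0 and 1 by DESeq2. The lowest adjusted p in labelled cells was that of Rnf213, 0.108. Its labelled site difference was -4.15 in the Slc1a3 line and -1.75 in the Aspm line, an interaction of -2.40 (SE 0.64) that passed with the replicate number as a block (adjusted p = 0.00559, 1.78% of all genes called) and by DESeq2 (adjusted p = 0.0126). With each line alone 35 (Slc1a3) and 41 (Aspm) members were called in totals and 38 and 38 in labelled cells. With replicates numbered 1 and 2 only, since number 4 occurs in back skin alone, the calls were 45 and 44. The shares of all genes called in these fits are not given here, so the counts describe the members alone.

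Within back skin few members were called between lines. Comparing totals, 4 of 52 members (7.69%) were higher in the Slc1a3 than in the K14 line and 0 lower. Of all genes 7.76% were called in either direction, with 533 of 17493 higher and 824 lower. In either direction the share of the members called was thus near that of all genes, and the direction of these 4 calls was not tested. Erap1 measured 121, 109.6 and 112 CPM in the 3 Slc1a3 totals and 79.7 and 56.2 in the 2 K14 totals, a difference of 0.75 (SE 0.16, adjusted p = 0.00943). Parp14 measured 86.9, 60.0 and 100.0 CPM against 39.5 and 19.6 (1.46, SE 0.35, adjusted p = 0.0159). Every Slc1a3 total lay above both K14 totals for these genes.

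Jak2 measured 63.8, 68.4 and 72.7 CPM in the Slc1a3 totals against 44.4 and 39.4 in the K14 totals (0.70, SE 0.17, adjusted p = 0.0149). Nlrc5 measured 255, 239 and 242 CPM against 129.8 and 114 (1.01, SE 0.30, adjusted p = 0.0392). None of the 4 calls held without K14 replicate 1 or without K14 replicate 4, each of which leaves a single K14 total that is assumed to vary like the other groups. None held when only the compared groups were fitted. Nlrc5 kept its call in 5 of 11 alternative settings, and Erap1, Parp14 and Jak2 each in 8. In labelled cells 1 member (1.92%), Ddx58, was higher in the Slc1a3 line. Of all genes 2.8% were called in either direction, with 191 higher and 298 lower. Ddx58 measured 11.9, 16.6 and 15.9 CPM against 6.17 and 3.8 (1.56, SE 0.37, adjusted p = 0.027). The same line difference for Erap1 was 0.57 in labelled cells (SE 0.16, adjusted p = 0.0544, and 0.0291 with the replicate number as a block, where 3 members and 4.16% of all genes were called).

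The GTPases gave no call between these lines. All 6 had positive values for Slc1a3 over K14 in totals (median 0.87) and labelled cells (median 0.73), beside medians of 0.02 and 0.05 over all genes. The K14 replicates differed: Gbp2 measured 69.8 and 67.1 CPM in labelled and total cells of replicate 1 but 20.8 and 21.3 in those of replicate 4. Likewise Igtp measured 26.2 and 29.2 CPM against 10.2 and 8.55. Of pathway genes outside the 53, Herc6 (2.48), Casp1 (1.09) and the interferon lambda receptor Ifnlr1 (0.91) were higher in the Slc1a3 totals. The chaperone Calr (-0.65), the proteasome genes Psmb6 (-0.72), Psma1 (-0.51) and Psmb7 (-0.95) and the membrane protein Ifitm2 (-1.09) were lower. In labelled cells Mndal was higher (4.46), and Calr (-0.76), Psma1 (-0.56) and Psmb6 (-0.66) were lower. These comparisons share the K14 or Slc1a3 libraries and are not independent of each other.

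No member was called by edgeR between the other back lines. For Slc1a3 over Aspm in totals (0.0114% of all genes called) 4 members had an unadjusted p under 0.05 and DESeq2 called 0, and in labelled cells (0.16% of all genes) the numbers were 2 and 0. For Aspm over K14 in totals (0.0686% of all genes) they were 6 and 1, and in labelled cells (0.2% of all genes) 5 and 1, where the DESeq2 call was Ddx58 each time. Ddx58 in the K14 line ranged from 3.8 to 8.38 CPM over both gates, and in the Aspm line from 14.2 to 24.5.

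Within back skin Aspm replicate 2 and K14 replicate 4 were low for many members in both gates. Of the 52 members tested, Aspm replicate 2 was among the 4 lowest of the 16 back libraries for 35 in the labelled and 30 in the total library. K14 replicate 4 was among them for 34 and 35. The next was Back Slc1a3 total replicate 4, with 21, and the other 11 libraries had 2 to 8 each. The same count over all genes is not given here, so whether this order is particular to the members was not tested. Irf1 shows the pattern: labelled and total cells of Aspm replicate 2 had 27.8 and 32.0 CPM and those of K14 replicate 4 had 37.0 and 40.1, whereas the other 12 back libraries lay between 61.6 and 123. Usp18 did not follow it, since K14 replicate 4 held its highest values of any library, 46.1 and 46.8 CPM. The libraries of a number may come from 1 skin, and what else they share is not given in the sources used here.

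**Figure D5:**
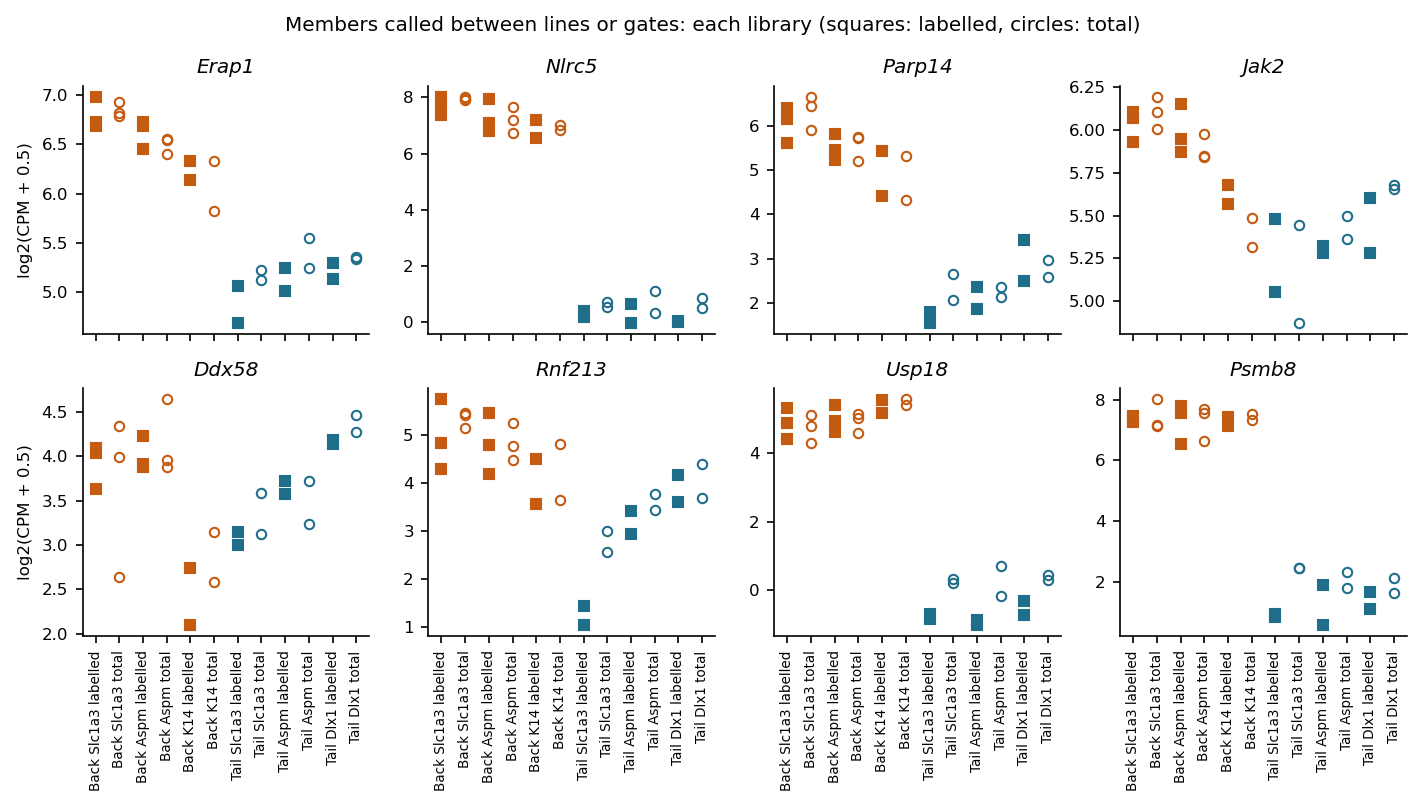
Level as log2(CPM + 0.5) of the 5 members called between lines (Erap1, Nlrc5, Parp14, Jak2, Ddx58), of Rnf213, also called between lines, and of Usp18 and Psmb8, which differed between gates with the replicate number as a block; 1 point per library in each of the 12 groups (orange back, blue tail; filled squares labelled, open circles total; vertical scales differ). The K14 groups are low for Erap1, Jak2 and Ddx58 within back, and tail labelled squares lie below tail circles for Usp18.

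Within tail skin 2 of 52 members (3.85%) were called between lines, both lower in labelled Slc1a3 than in labelled Dlx1 cells. Of all genes 5.47% were called in either direction, with 404 higher and 553 lower. Rnf213 measured 1.57 and 2.20 CPM in labelled Slc1a3 cells and 11.6 and 17.4 in labelled Dlx1 cells, a difference of -2.95 (SE 0.53, adjusted p = 0.00293). Parp14 measured 2.97 and 2.43 CPM against 5.09 and 10.3 (-1.52, SE 0.43, adjusted p = 0.0388). The 2 groups did not overlap for either gene. Rnf213 lost its call without Slc1a3 replicate 1 and without Dlx1 replicate 2, and Parp14 also without Slc1a3 replicate 2, each time with a single library left in that group. Rnf213 was also low against labelled Aspm cells, at 10.2 and 7.21 CPM, a difference of -2.21 that did not pass (adjusted p = 0.0602) and did with the replicate number as a block (adjusted p = 0.0354, 0.898% of all genes called). Outside the 53, Tlr3 (-2.31), Helz2 (-2.18) and the tapasin relative Tapbpl (-0.91) were lower in labelled Slc1a3 than Dlx1 cells and Psmb6 was higher (0.85), as it was between the totals of these lines (0.80).

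The other tail line comparisons gave no call among the members by edgeR. For Slc1a3 over Dlx1 in totals (1.92% of all genes called) 7 members had an unadjusted p under 0.05 and DESeq2 called 2, Rnf213 and Psme1. Slc1a3 over Aspm gave 4 and 0 in totals (0.00572% of all genes) and 4 and 1 in labelled cells (0.492% of all genes). Aspm over Dlx1 gave 1 and 0 in totals (0.0343% of all genes) and 5 and 0 in labelled cells (0.0915% of all genes).

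Between labelled cells and the total of the same line and site no member was called by edgeR in any of 6 comparisons. In back skin the shares of all genes called were 0.109% (Slc1a3), 0% (Aspm) and 0.00572% (K14), 1, 0 and 0 members had an unadjusted p under 0.05, and DESeq2 called 0 in each. In tail skin the shares were 0.514% (Slc1a3), 0.00572% (Aspm) and 0% (Dlx1), 7, 2 and 1 members had an unadjusted p under 0.05, and DESeq2 called 2, 0 and 0. Labelled and total libraries of 1 line, site and number were taken as pairs, which the labels do not state. With the replicate number as a block calls appeared in tail skin: 4 members for Slc1a3 (1.49% of all genes called), 1 for Aspm (0.0343%) and 1 for Dlx1 (0.463%), all lower in labelled cells.

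Usp18 was the member common to these 3 blocked comparisons. Its labelled tail libraries measured 0.0582 and 0.119 (Slc1a3), 0.0488 and 0 (Aspm) and 0.103 and 0.304 CPM (Dlx1), and its total tail libraries 0.757 and 0.669, 1.15 and 0.383, and 0.739 and 0.859 CPM. Every labelled value lay below every total value. The blocked differences were -2.92 (adjusted p = 0.0115), -4.63 (adjusted p = 0.029) and -1.86 (adjusted p = 0.047), against adjusted p = 0.146, 0.449 and 0.915 without the block. The labelled Slc1a3 and Aspm values lay below the floor of 3 counts per library (0.176 and 0.167 CPM). The sizes of these differences therefore rest on very few reads. In back skin labelled and total Slc1a3 cells differed by 0.15 for Usp18 (SE 0.29).

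The other blocked calls in tail Slc1a3 cells were Psmb8 (1.28 and 1.42 CPM labelled, 4.96 and 4.96 total, difference -1.87, adjusted p = 0.0021), Rnf213 (1.57 and 2.20 against 5.37 and 7.55, difference -1.78, adjusted p = 0.00475) and Psmb9 (2.74 and 2.49 against 6.06 and 3.82, difference -0.89, adjusted p = 0.044). A test of whether the labelled over total difference itself differs between tail and back called no member in the Slc1a3 line (0.0915% of all genes called) or the Aspm line (0% of all genes) by edgeR, with 4 and 2 members at an unadjusted p under 0.05 and 0 by DESeq2 in both. With the block (0.474% of all genes called) it called Usp18 (-3.06, adjusted p = 0.0281) and Psmb8 (-1.82, adjusted p = 0.0178) in the Slc1a3 line.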

How the data were processed

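Counts per gene for 28 libraries were used as deposited. Per the labels' protocols, RNA was taken up in TRIzol, selected by poly(A) and prepared with a non-directional NEB Ultra II kit. Per the submitters' processing notes, Trim Galore 0.6.0, cutadapt, FastQC, STAR 2.7.0e and DESeq2 1.26.0 were used with GRCm38. The counting program, annotation and strand setting are not given in the sources used here. Members, lists and comparisons were chosen with earlier results of these data known.

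Genes were named from GENCODE M21. Those passing edgeR's filterByExpr (minimum count 10) numbered 17493. A robust quasi-likelihood model with 12 group means (edgeR 4.0.16, R 4.3.3; 16 residual degrees of freedom, biological coefficient of variation 0.28) gave 24 comparisons with TMM scaling and Benjamini-Hochberg adjustment. It was tested on simulated counts. Members called between sites, with the lowest p first, and up to 10 each way in other comparisons are given by library or by range, and up to 4 pathway genes each way. Labelled and total libraries of 1 line, site and number were taken as pairs. The reason was r between their deviations from group means, 0.199 to 0.699 in 14 of 14 pairs. In each tail line and in the back K14 line both replicate numbers gave the same r. It was 0.505 (tail Slc1a3), 0.3 (tail Aspm), 0.683 (tail Dlx1) and 0.379 (back K14). The pairs within each of these groups are therefore not independent. Alternatives were RLE size factors, library totals, no filter, DESeq2 1.42.0, fewer groups, a replicate block and leaving out each library.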

Additional observations from a re-analysis of the deposited data

How the results depend on the processing

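Direction was followed for the called members with the lowest p in each site comparison and for all calls between lines. None of these changed direction in any alternative. Members called between sites numbered 39 to 46 in totals and 39 to 44 in labelled cells when single libraries were left out. Of the 43 and 42 called, 33 and 36 were called in all of 19 and 20 settings. The line-alone fits and the fits of replicates 1 and 2 were chosen after seeing the data. The replicate block by line and number across sites left 43 and 43 calls, although numbers correlated across sites at only -0.0745 to 0.321 (3 of 8 pairs over 0.1) and across lines at -0.139 to 0.325 (12 of 26). Pairs across tail lines give the same value for numbers 1 and 2, so they are not independent. None of the 7 calls between lines held in all settings, and the cause was not tested. Groups hold 2 or 3 libraries, and values under 1 CPM rest on few reads. Shares of all genes called are given only for the main fit and the replicate block. Counts from the other settings therefore describe the members alone and set no background beside them.

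Without a filter on low counts the calls were 2 and 2 for site by line (totals, labelled), 4 and 1 for tail Slc1a3 and Aspm labelled over total, 3 and 1 for gate by site (Slc1a3, Aspm), 2, 10 and 6 for back totals (Slc1a3 over Aspm, Slc1a3 over K14, Aspm over K14), 1, 7 and 5 for back labelled cells in the same order, 2 and 2 for tail totals (Slc1a3 over Aspm, Slc1a3 over Dlx1) and 3, 4 and 2 for tail labelled cells (Slc1a3 over Aspm, Slc1a3 over Dlx1, Aspm over Dlx1). DESeq2 gave 1 for site by line in labelled cells, 2 for tail Slc1a3 labelled over total, 1 and 1 for back Aspm over K14, 4 for back Slc1a3 over K14 labelled, 2 for tail Slc1a3 over Dlx1 totals and 1 for tail Slc1a3 over Aspm labelled. With library totals alone the calls were 2 (back Slc1a3 over K14 labelled, also 2 with RLE factors), 1 (tail Slc1a3 over Dlx1 totals), 1 (tail Slc1a3 over Aspm labelled) and 5 (tail Slc1a3 over Dlx1 labelled). Fitting only the compared groups gave 0 and 6 for back Slc1a3 over K14 (totals, labelled), 1 and 4 for tail Slc1a3 over Dlx1 and 1 for tail Slc1a3 over Aspm labelled.

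With the replicate block the calls were 1 for site by line labelled, 4, 1 and 1 for tail labelled over total (Slc1a3, Aspm, Dlx1), 2 for gate by site in the Slc1a3 line, 3 for back Slc1a3 over K14 labelled, 1 for tail Slc1a3 over Dlx1 totals and 1 for tail Slc1a3 over Aspm labelled. Leaving out single libraries gave 0 to 5 calls for back Slc1a3 over K14 totals, 0 to 2 for the same labelled, 0 to 4 for tail Slc1a3 over Dlx1 labelled, and 0 to 1 for site by line labelled, back Aspm over K14 in either gate, back Slc1a3 over Aspm labelled and tail Slc1a3 over Dlx1 totals. Without Back Slc1a3 total replicate 4 the site calls were 45 in totals and 43 in labelled cells, those for back Slc1a3 over K14 were 5 and 2, for back Aspm over K14 1 and 1 (Ddx58), and for tail Slc1a3 over Dlx1 1 and 4. With the ISRE core read on the gene's strand alone, 17% of member windows and 1.74% of all windows matched.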
